A study of Mus musculus with 7 samples.

Results

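Extracellular vesicles (EVs) from Dis3l2 knockdown macrophages that also carried an empty vector were compared with EVs from the knockdown cells without it. The comparison used 2 of the 7 libraries of the study, 1 library each, picked by their labels. The Vector library came from RAW264.7 cells with a hairpin against Dis3l2 (shDis3l2) plus the empty vector, and the shDis3l2 library came from RAW264.7 cells with the hairpin alone. RAW264.7 is a mouse macrophage cell line. The remaining libraries came from EVs of shDis3l2 cells with catalytically inactive Dis3l2 (D389N), of shDis3l2 cells with a hairpin-resistant Dis3l2 (Dis3l2r) and of cells with a non-silencing hairpin (shNS), and from whole shDis3l2 and shNS cells. Every line was grown with 1 µg/mL doxycycline for 3 days, and medium was collected over the next 24 h from 15 flasks. EVs were banded on sucrose, treated with micrococcal nuclease, and their RNA was copied by a group II intron type reverse transcriptase (Induro). The labels give neither the vector's promoter nor whether a line was 1 clone, and no whole-cell library of the Vector line was analysed here.

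Both lines of the pair have the same label for Dis3l2, knocked down and with no added copy. Their difference was used as a yardstick of differences between lines, EV preparations and libraries in this study. It also holds the vector itself and any difference in the depth of the knockdown, which was not measured here. With 1 library a group these sources cannot be told apart, and no test was possible. For 5 pieces of transcripts with at least 1000 counts, Vector EVs lay at least 8-fold below all 4 other EV libraries, shDis3l2 EVs included, and whole shDis3l2 cells were also low in them beside whole shNS cells. Whether a library was swapped or mislabelled was not tested, and every difference below assumes the labels as given. Of the 3639 transcript IDs, 0 were matched to a gene name, so Dis3l2 itself and macrophage markers were not checked here.

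Dis3l2 is an exoribonuclease that degrades RNAs from their 3′ end, with a preference for RNAs that carry added uridines, many of them made by RNA polymerase III. Such polymerase III products include the tRNAs, which carry amino acids to the ribosome, the rodent 4.5S RNA, and transcripts of B1 and B2 SINEs, which are short repeated elements of the mouse genome. Small structured RNAs of this kind are common cargo of EVs. Each anticodon is carried by the tRNAs of a family of genes. The members of a family often differ by few bases, so the division of reads among them by the counting tool is uncertain.

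The Vector library held 25177102 counts over the 3894 whole-RNA rows of the table, and the shDis3l2 library held 18428621. Counts were above 0 in 799 rows in Vector EVs and in 787 rows in shDis3l2 EVs. Values are given as CPM of these totals (counts scaled to a common library total), and differences as log2 ratios of Vector over shDis3l2 after TMM scaling (trimmed mean of M values), with a 95% interval that covers counting error only. A row was measured when it had at least 100 counts over both libraries, and it was called higher or lower when the ratio reached 2-fold with an interval excluding 1.

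Most rows did not reach 2-fold; of those that did, tRNA rows were mostly higher and transcript rows mostly lower in the EVs of the Vector line. Of 393 measured rows, 35 (8.91%) were higher and 59 (15%) lower in Vector EVs, so 23.9% passed the rule of size. Among 170 measured tRNA rows, 27 were higher and 2 lower (17.1% in all), with a median log2 ratio of 0.35, against a median of -0.06 over all measured rows. Among 202 measured transcript rows, 8 were higher and 57 lower (32.2% in all), with a median of -0.66. A log2 ratio above 0 was found for 137 of the tRNA rows, and one below 0 for 167 of the transcript rows. Both medians kept their sign under each scaling tried. The division of called rows did not: DESeq2 size factors, which moved the median of all rows by 0.13, gave 46 higher and 49 lower, and totals of the exon rows, which moved it by 0.40, gave 67 higher and 26 lower. The plot of ratio against count shows the tRNA rows mostly above 0 and the transcript rows mostly below it.

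**Figure D1:**
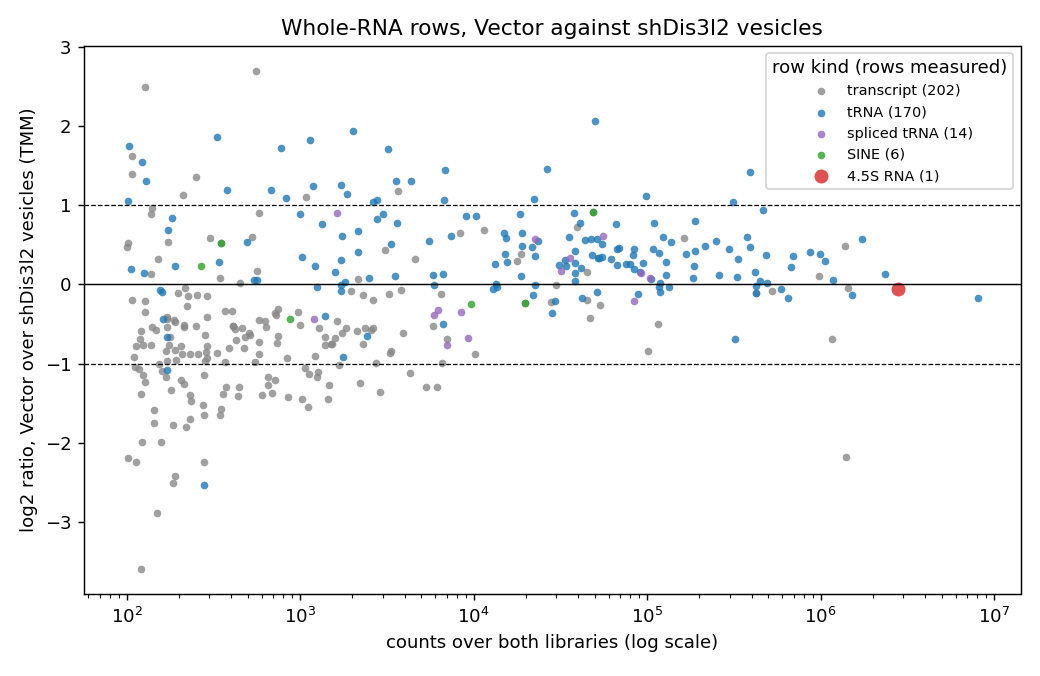
Log2 ratio of Vector over shDis3l2 EVs (vertical axis, TMM-scaled) against counts over both libraries (horizontal log axis) for the 393 measured whole-RNA rows, 1 point a row, coloured by kind, with dashed lines at 2-fold. tRNA points lie mostly above 0 (137 of 170), transcript points mostly below 0 (167 of 202), and the 4.5S RNA point at -0.06.

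The make-up of the whole-RNA counts differed the same way. Named tRNA rows held 75.8% of counts in Vector EVs (exact Clopper-Pearson 95% interval 75.80% to 75.83%) and 69.9% in shDis3l2 EVs (69.89% to 69.94%). Transcript rows held 16.6% in Vector EVs (16.62% to 16.65%) and 22.2% in shDis3l2 EVs (22.18% to 22.22%). The other EV libraries spanned 69.5% to 74.1% for tRNA and 16.7% to 24.5% for transcripts, so the tRNA share of Vector EVs was the highest of the 5 EV libraries and its transcript share the lowest. A share cannot tell less of an RNA per EV from fewer EVs that carry it, and a gain of one kind lowers the shares of the rest.

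A single transcript row carried most of that difference. ENSMUST00000174924 made up 1.27% of the counts in Vector EVs and 5.89% in shDis3l2 EVs. With it left out, a choice made after its values were seen, tRNA held 76.8% in Vector EVs and 74.3% in shDis3l2 EVs, and transcripts held 15.6% in Vector EVs and 17.3% in shDis3l2 EVs. The row stood at 12678 CPM in Vector EVs and at 58904 CPM in shDis3l2 EVs, with a log2 ratio of -2.18 (-2.19 to -2.18). It stood at 7045.5 CPM in D389N EVs, 12179.9 CPM in Dis3l2r EVs and 15465 CPM in shNS EVs. Among the EV libraries, shDis3l2 was thus the one that stood apart for this RNA. Whole shDis3l2 cells held 6678 CPM of it and whole shNS cells 2878 CPM.

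Among individual tRNAs, the largest rise was in tRNA-Thr-CGT-4-1, a threonine tRNA, at 1689.5 CPM in Vector EVs and 413 CPM in shDis3l2 EVs. Its log2 ratio was 2.07 (2.03 to 2.10). D389N EVs held 1078 CPM, Dis3l2r EVs 1519 CPM and shNS EVs 680.4 CPM, so shDis3l2 EVs held the least of the 5 and Vector EVs the most. The other members of its family had smaller ratios, the lowest 0.37, and the Thr-CGT family summed to a ratio of 0.70.

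The cysteine tRNA-Cys-GCA-7-1 stood at 66.9 CPM in Vector EVs and 17.8 CPM in shDis3l2 EVs, a log2 ratio of 1.94 (1.77 to 2.12). D389N EVs held 74.2 CPM of it, Dis3l2r EVs 64.1 CPM and shNS EVs 33.7 CPM. The 3 lines with an added construct thus lay close together, above both lines without one. How many of all measured rows split this way was not counted. The lysine tRNA-Lys-TTT-2-1 showed the same split between lines with and without an added construct, with 214 CPM in Vector, 223 CPM in D389N and 220.3 CPM in Dis3l2r EVs, against 80.6 CPM in shDis3l2 and 128 CPM in shNS EVs; its ratio of Vector over shDis3l2 was 1.45 (1.36 to 1.53).

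For other tRNAs the Vector library was the highest of the 5. tRNA-Ile-TAT-2-1, the unspliced form of an isoleucine tRNA whose gene has an intron, stood at 37.4 CPM in Vector EVs and 10.9 CPM in shDis3l2 EVs, a log2 ratio of 1.82 (1.60 to 2.05). D389N and shNS EVs each held 12.7 CPM and Dis3l2r EVs 23.0 CPM. The glutamine tRNA-Gln-TTG-2-1 stood at 831 CPM in Vector EVs and 309 CPM in shDis3l2 EVs, a ratio of 1.46 (1.42 to 1.50), with 464 to 558 CPM in the remaining EVs, so shDis3l2 EVs lay as far below those as Vector EVs lay above them.

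The glycine tRNA-Gly-CCC-2-1 stood at 104 CPM in Vector EVs and 32.5 CPM in shDis3l2 EVs (log2 ratio 1.71, 1.58 to 1.84). Its more abundant relative tRNA-Gly-CCC-3-1 was higher by 1.43, with 307276 counts in Vector EVs and 85790 in shDis3l2 EVs, whereas tRNA-Gly-CCC-1-1 had 145665 counts in Vector EVs and 176847 in shDis3l2 EVs, a ratio of -0.69. The Gly-CCC family as a whole came to 0.38, far less than the range of its members. The methionine elongator tRNA-Met-CAT-4-1, at 11.0 CPM in Vector and 3.12 CPM in shDis3l2 EVs, had a ratio of 1.87 (1.45 to 2.30) in a family that summed to -0.07, or 0.06 with DESeq2 size factors. The leucine tRNA-Leu-TAA-3-1, at 25.1 CPM in Vector and 7.81 CPM in shDis3l2 EVs, had a ratio of 1.72 (1.46 to 1.99). The remaining large rises, tRNA-Gln-CTG-1-1 at 1.75 (1.02 to 2.55) and tRNA-Ser-AGA-1-1 at 1.54 (0.89 to 2.24), were scarce, with 84.6 counts of the glutamine tRNA and 97.5 counts of the serine tRNA in Vector EVs.

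The 2 tRNA rows that passed the rule as lower were both scarce. With DESeq2 size factors or with exon totals 1 tRNA row was lower, and with totals without the most abundant row 3 were. tRNA-Leu-AAG-2-1, a leucine tRNA, stood at 2.07 CPM in Vector EVs and 12.2 CPM in shDis3l2 EVs, a log2 ratio of -2.53 (-3.00 to -2.09). The other EVs held 0.599 to 2.87 CPM, so the shDis3l2 library stood above the other 4. The other 2 members of its family were abundant and had ratios of 0.02 and -0.04, and Leu-AAG summed to 0.01, or -0.02 with totals. The valine tRNA-Val-CAC-4-1 stood at 2.62 CPM in Vector EVs and 5.69 CPM in shDis3l2 EVs, a ratio of -1.08 (-1.55 to -0.63). It no longer passed the rule with DESeq2 size factors (-0.95) or exon totals (-0.69).

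**Figure D2:**
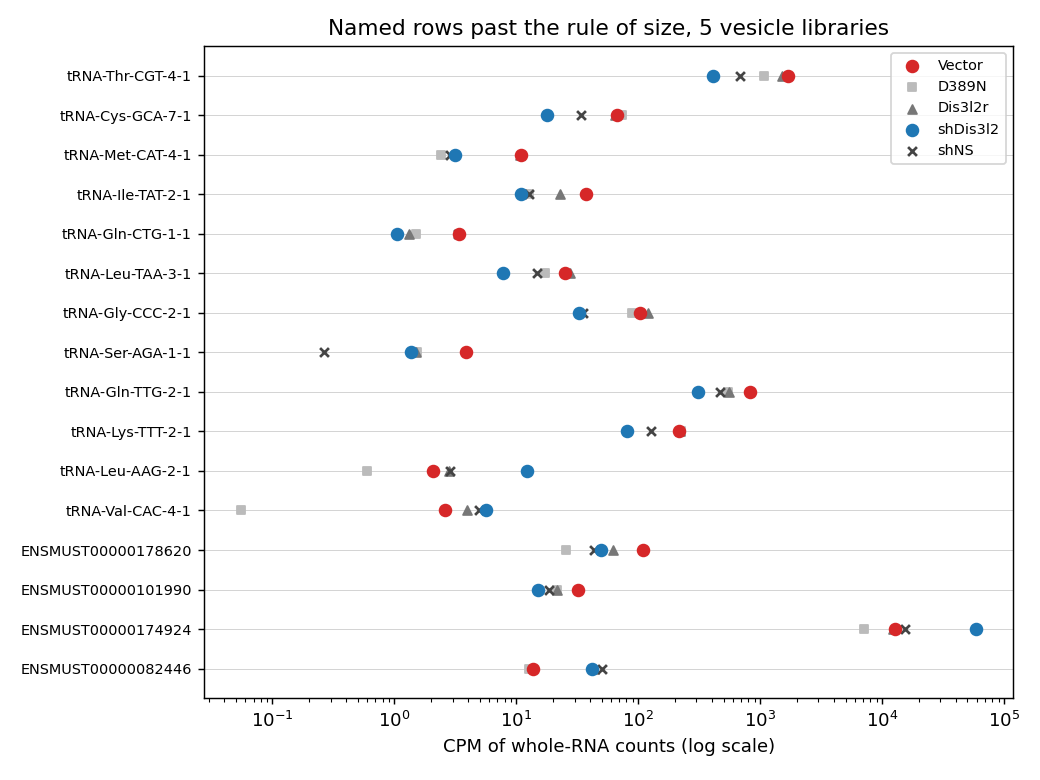
CPM of whole-RNA counts (horizontal log axis) of the 10 tRNA rows with the largest called rises, the 2 tRNA rows called lower, and the 2 largest called rises and 2 largest called falls among transcripts with at least 1000 counts, 1 symbol for each of the 5 EV libraries. Vector and shDis3l2 symbols are apart in every row; ENSMUST00000174924 and tRNA-Leu-AAG-2-1 are rows where shDis3l2 EVs lie above all 4 others, and tRNA-Ile-TAT-2-1 is one where Vector EVs do.

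The most abundant small RNAs differed far less. tRNA-Gly-TCC-1-1, the glycine tRNA that was the most abundant row in both libraries, stood at 173671 CPM in Vector EVs and 200733 CPM in shDis3l2 EVs (log2 ratio -0.17). 4.5S RNA stood at 62552 CPM in Vector EVs and 66909.7 CPM in shDis3l2 EVs, a ratio of -0.06 that turned to 0.07 with DESeq2 size factors and 0.33 with exon totals. The lysine tRNA-Lys-CTT-3-1 had a ratio of 0.14 and the arginine tRNA-Arg-CCG-3-1 one of -0.14. The initiator tRNA-iMet-CAT-1-1, which starts protein synthesis, was the exception, at 45839 CPM in Vector EVs and 31516 CPM in shDis3l2 EVs. Its ratio was 0.58, and it stood at 57472 CPM in D389N EVs, 44434 CPM in Dis3l2r EVs and 22950.3 CPM in shNS EVs. Counting error was far smaller than the ratio in each of these 5 rows. The glycine ratio turned to 0.22 and the arginine ratio to 0.26 with exon totals.

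Summing rows over an anticodon removed nearly all of the calls. Of 51 anticodon families, spliced rows kept apart, 49 were measured, and only Pro-AGG passed the rule (1 of 49, 2.04%), at 81.2 CPM in Vector EVs and 39.7 CPM in shDis3l2 EVs with a ratio of 1.07 (0.94 to 1.19). That call was lost without the most abundant row (0.98), whereas 2 families were higher with DESeq2 size factors and 5 with exon totals. No family was lower under any of these scalings. The direction was still mostly one way, with 40 families above 0 and 9 below, but this moved with the scaling, from 34 above and 15 below without the most abundant row to 49 above and 0 below with exon totals. Gln-TTG followed at 0.94, then Thr-CGT at 0.70 and Thr-AGT at 0.66. At the other end stood Arg-TCT at -0.19 and Gly-TCC at -0.17.

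Within families the members spread widely. In the 41 families with at least 2 measured rows, the median range between the lowest and highest member was 0.92, and 20 families had members on both sides of 0. Grouped by the amino acid carried, the highest ratios were those of glutamine (0.67), threonine (0.62) and the initiator methionine (0.58), and the lowest those of glycine (-0.12) and tyrosine (-0.10), both above 0 with DESeq2 size factors or exon totals. None of the 22 measured amino acid groups reached 2-fold.

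**Figure D3:**
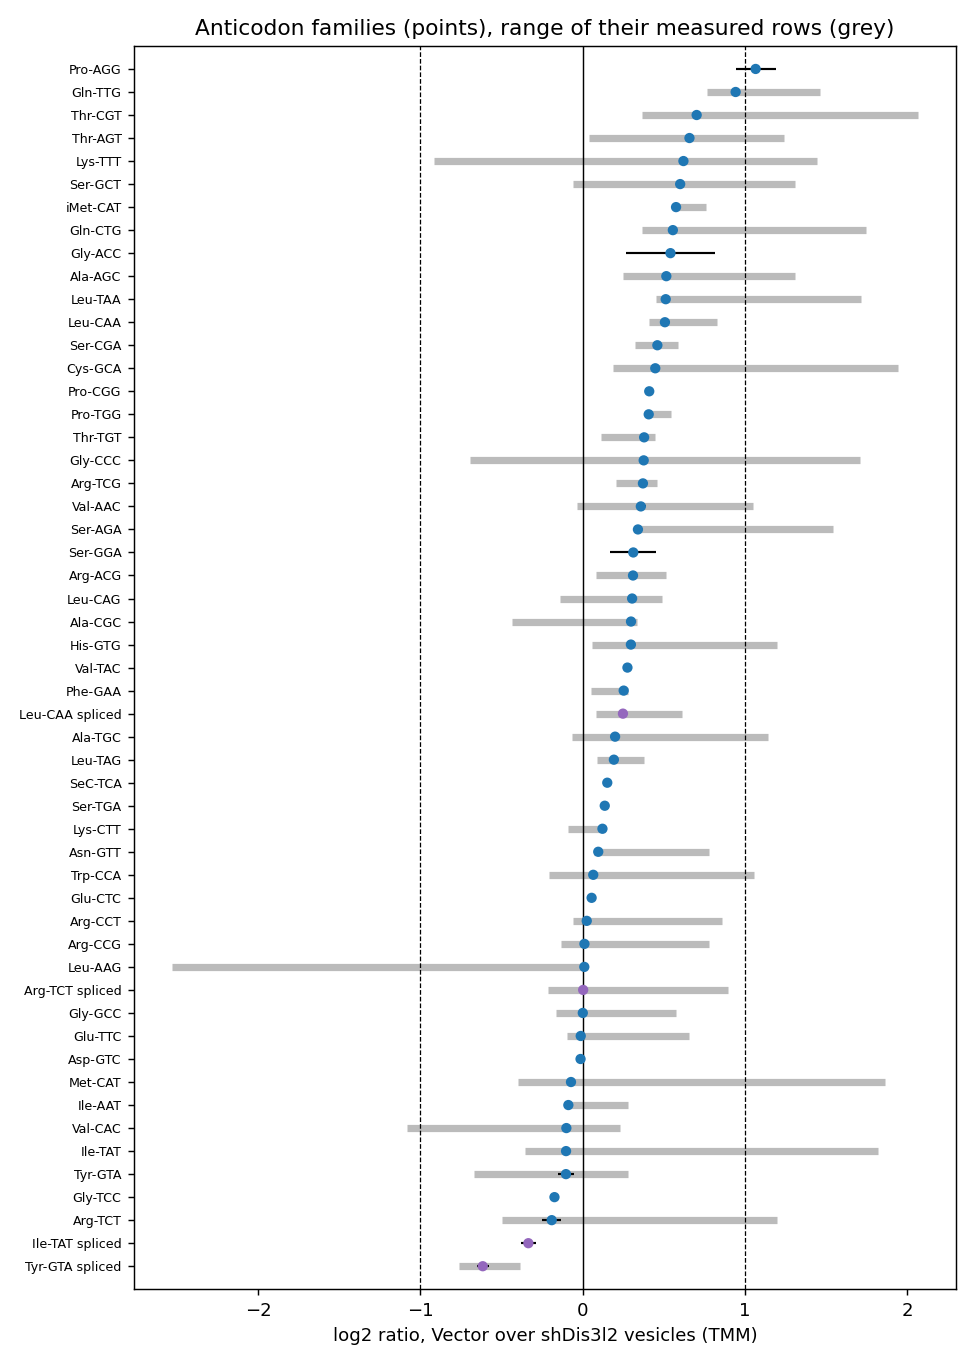
Log2 ratio of Vector over shDis3l2 EVs (horizontal axis, TMM-scaled) of each measured anticodon family (points, blue unspliced or without an intron, purple spliced) with its counting interval (black) and the range of its measured rows (grey), dashed lines at 2-fold. Family points run from -0.62 for spliced Tyr-GTA to 1.07 for Pro-AGG, and single rows run wider, from -2.53 in Leu-AAG to 2.07 in Thr-CGT.

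Leu-CAA, Tyr-GTA, Arg-TCT and Ile-TAT are the tRNA families with genes that hold an intron, which must be spliced out before the tRNA works. Of the 14 measured spliced rows 0 passed the rule, with a median of -0.06, which was 0.07 with DESeq2 size factors, and 7 rows on each side of 0. With DESeq2 size factors 1 spliced row was higher, spliced tRNA-Arg-TCT-5-1 at 1.03, and with exon totals 2 were. Of the 21 measured unspliced rows of the same families 2 were higher and 0 lower, with a median of 0.16. Spliced Tyr-GTA stood lowest, at 433 CPM in Vector EVs and 679 CPM in shDis3l2 EVs (ratio -0.62, -0.65 to -0.58), and all of its 4 measured rows were below 0, one of them turning to 0.01 with exon totals. Unspliced Tyr-GTA stood at 324 CPM in Vector EVs and 357 CPM in shDis3l2 EVs, with a ratio of -0.10 that was above 0 with DESeq2 size factors. Spliced Leu-CAA had a ratio of 0.25, and its 4 rows lay between 0.08 and 0.62.

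Of 15 SINE rows 6 were measured and 0 passed the rule, and 3 lay on each side of 0. The most abundant, the second of 2 rows for B1_Mus2, stood at 1382 CPM in Vector EVs and 750.4 CPM in shDis3l2 EVs, a ratio of 0.92 (0.89 to 0.95). It passed the rule with DESeq2 size factors, at 1.05, and with exon totals, at 1.31. D389N EVs held 1754.7 CPM, Dis3l2r EVs 1618 CPM and shNS EVs 996 CPM, so EVs of the 3 lines with an added construct held more of it than those of the 2 lines without. The first B1_Mus2 row had a ratio of -0.23 (0.17 with exon totals), and B2 one of -0.25 (0.14 with exon totals). Of the SINE rows, 8 repeat the counts of a transcript row to within 0.5 counts in all 7 libraries.

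Among transcripts with at least 1000 counts, 2 of 72 were higher and 15 lower. Over all 393 measured rows 23.9% passed the rule, 35 higher and 59 lower. Over all 202 measured transcripts 8 were higher and 57 lower. The highest was ENSMUST00000178620, at 109.7 CPM in Vector EVs and 49.8 CPM in shDis3l2 EVs (1.17, 1.07 to 1.28), with 25.6 to 61.9 CPM in the other EVs. It was followed by ENSMUST00000101990, at 31.9 CPM in Vector EVs and 15.1 CPM in shDis3l2 EVs (1.11, 0.91 to 1.31). After ENSMUST00000174924, the largest fall was that of ENSMUST00000082446, at 13.8 CPM in Vector EVs and 41.4 CPM in shDis3l2 EVs (-1.55, -1.73 to -1.36). D389N EVs held 12.6 CPM of this RNA, Dis3l2r EVs 43.7 CPM and shNS EVs 50.3 CPM, so Vector and D389N EVs were low together.

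Most measured transcripts, and most of the lower ones, held a smaller share of counts in EVs than in cells. Each transcript with enough counts was placed by its ratio of CPM in shNS EVs over shNS cells, neither of which is in the pair. The cell RNA had been depleted of rRNA. Transcript rows together held 86.1% of whole-RNA counts in shNS cells and 20.0% in shNS EVs. The placement includes this shift of the whole class, so it does not show that a single transcript was kept out of EVs. Of 142 measured transcripts at least 4-fold lower in EVs than in cells, 46 were lower and 3 higher in Vector EVs, with a median of -0.76, and 132 lay below 0. Of 24 transcripts at least 4-fold higher in EVs than in cells, 1 was lower and 3 higher, with a median of 0.35. The 31 in between had 10 lower and 1 higher, with a median of -0.67. Over all 202 measured transcripts 57 were lower and 8 higher. The first group and the 31 in between were thus lower at nearly the same rate, close to that of all transcripts. The first group summed to 6068 CPM in Vector EVs and 9075 CPM in shDis3l2 EVs, and to 4563 CPM in D389N, 9048 CPM in Dis3l2r and 7154 CPM in shNS EVs. What part these transcripts had in the other differences was not tested. Counts differ between the groups, with a median of 362.5 over both libraries in the first and 14611 in the second. Among rows with at least 1000 counts the first group had 11 of 39 lower and 0 higher (median -0.68), and all others 4 of 33 lower and 2 higher (median -0.08). Below 300 counts the medians were -0.81 in 66 rows of the first group and -0.96 in 13 others. Of those rows, 24 of the 66 and 6 of the 13 were lower, with 2 higher in each.

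The spread between the 2 libraries was larger than the counting error of single rows. The median absolute log2 ratio of the 393 measured rows was 0.57, which is 1.48-fold, and the 90th percentile was 1.40, or 2.65-fold. A robust SD of the log2 ratios, taken from the median absolute deviation, came to 0.86, against a median counting SD of 0.07 a row, which takes reads as independent. Rows with at least 10000 counts differed less than rows below that. In rows of 100 to under 300 counts the median and 90th percentile were 0.88 and 1.99, and in rows of at least 100000 counts 0.30 and 0.78. The SD beyond counting was 0.78 in rows of 100 to under 300 counts, 0.84 in both bins from there to 10000 counts, 0.37 from 10000 to 100000 and 0.36 above. Kinds of RNA differ between the bins: 83 of the 99 rows in the lowest were transcripts, and 47 of the 59 rows in the highest were tRNAs. Among transcripts alone the median absolute log2 ratio was 0.89 in the lowest bin, 0.70 from 300 to 1000 counts and 0.75 from 1000 to 10000. The SDs over all rows also hold the difference between tRNA and transcript medians. Within a kind, the robust SD over measured rows was 0.45 for tRNAs and 0.68 for transcripts. The SD beyond counting of transcripts was 0.63, 0.46 and 0.55 in those 3 bins, and that of tRNAs was 0.72 from 1000 to 10000 counts. Of the 59 rows with at least 100000 counts, 5.08% differed by 2-fold or more, and of the 99 rows with 100 to under 300 counts 41.4% did.

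**Figure D4:**
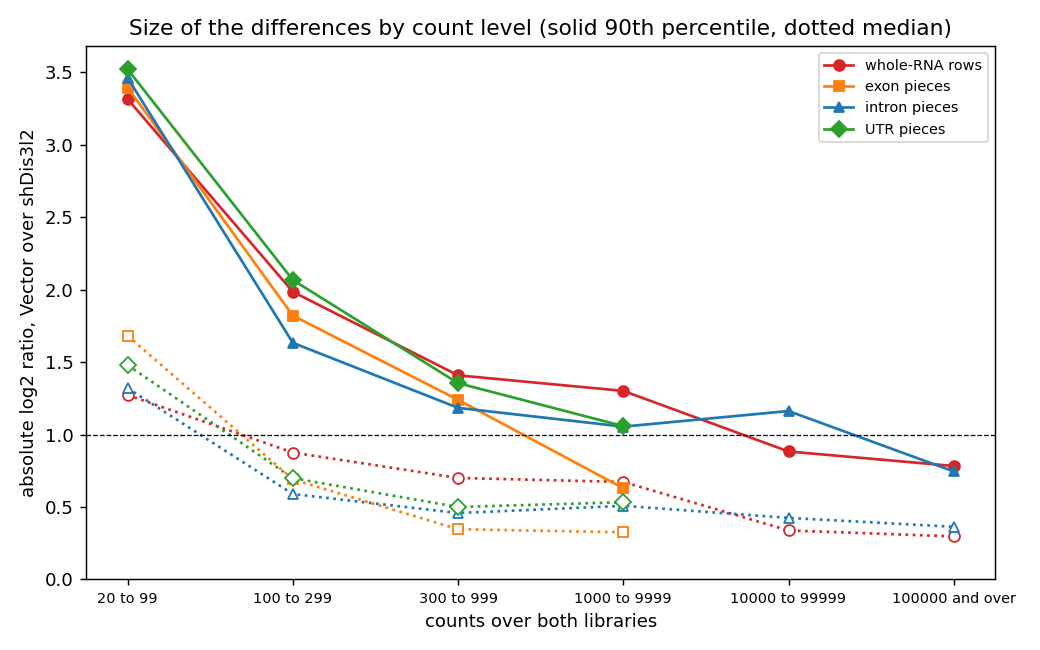
Absolute log2 ratio between Vector and shDis3l2 EVs (vertical axis) by counts over both libraries (horizontal axis, bins) for whole-RNA rows and exon, intron and UTR pieces; solid lines are 90th percentiles, dotted lines medians, and the dashed line 2-fold. For whole-RNA rows the 90th percentile is 1.99 in the bin of 100 to under 300 counts and 0.78 at 100000 counts and over.

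The same rule was run on each pair of the 5 EV libraries, and the pairs share libraries, so they are given side by side with no test. The pair of Vector and shDis3l2, at 23.9%, ranked the fifth from the lowest of 10. The lowest was shDis3l2 against shNS at 11.2%, which differ by label in Dis3l2. Dis3l2r against shNS stood at 14.5%, and Dis3l2r against shDis3l2 at 16.5%. D389N against Vector stood at 23.2%, D389N against Dis3l2r at 24.5%, D389N against shDis3l2 at 27.5% and D389N against shNS at 29.5%. Vector against shNS stood at 30.3%, and Dis3l2r against Vector was the highest at 32.1%. For transcripts alone the Vector and shDis3l2 pair stood at 32.2%, and for tRNAs alone at 17.1%.

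**Figure D5:**
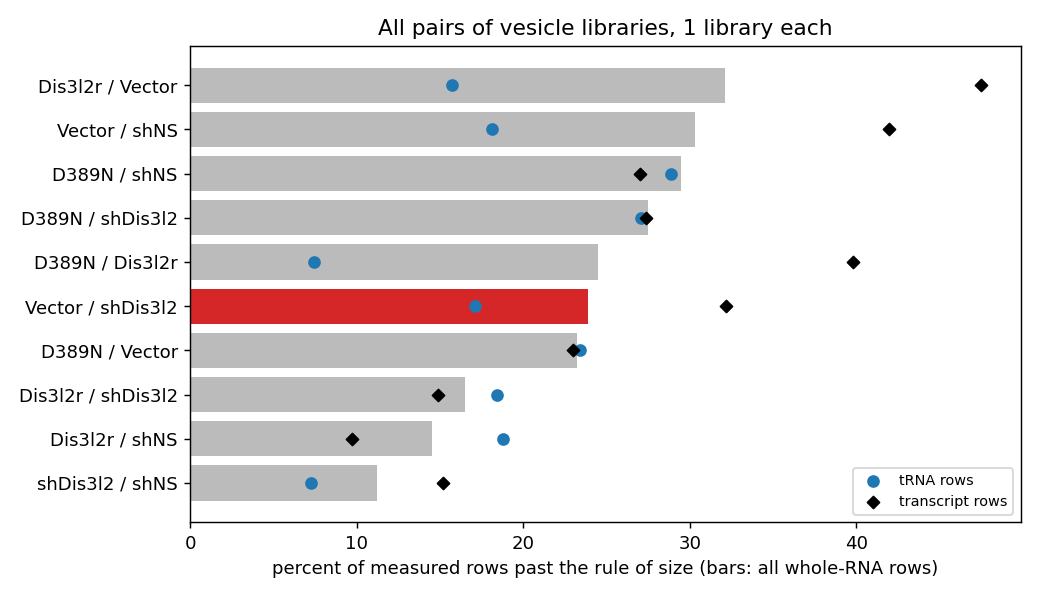
Percent of measured whole-RNA rows past the rule of size for each pair of EV libraries (bars), and the same for tRNA rows (circles) and transcript rows (diamonds); pairs share libraries. The Vector and shDis3l2 pair (red bar) stands at 23.9%, between 11.2% for shDis3l2 with shNS and 32.1% for Dis3l2r with Vector.

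For places among all 5 EV libraries, values were scaled by TMM over those 5 libraries, and other scalings were not tried. Against totals, this scaling raises D389N values and lowers those of Dis3l2r and shNS EVs. Vector EVs had the highest scaled value in 66 of the 170 measured tRNA rows and the lowest in 3. They had the lowest in 96 of the 202 transcript rows. D389N EVs were highest in 67 tRNA rows, about as many as Vector EVs. The lowest value was that of shDis3l2 EVs in 44 tRNA rows, of Dis3l2r EVs in 61 and of shNS EVs in 45. The highest was that of shDis3l2 EVs in 60 transcript rows and of Dis3l2r EVs in 63. For the 57 lower transcripts, the Dis3l2r library was nearer to shDis3l2 in 50 and the shNS library in 45, while the D389N library was nearer to Vector in 33. For the 27 higher tRNAs, D389N EVs were nearer to Vector in 15, Dis3l2r EVs in 16 and shNS EVs in 8.

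Pieces of transcripts were scaled within their own sets, since they can hold the same reads as the whole-RNA rows. Of 459 measured exon pieces 46 (10%) were higher and 75 (16.3%) lower in Vector EVs, 26.4% in all. Of 8490 intron pieces 1213 (14.3%) were higher and 722 (8.5%) lower, 22.8% in all. Of 1499 UTR pieces 279 (18.6%) were higher and 184 (12.3%) lower, 30.9% in all. Over all measured rows these shares lay near that of the whole-RNA rows, but the sets differ in counts. At like counts from 100 to under 10000, pieces differed by 2-fold or more less often. From 100 to under 300 counts, 41.4% of whole-RNA rows did so, against 30.9% of exon, 26.5% of intron and 35.5% of UTR pieces. From 1000 to under 10000 counts, 28.9% of whole-RNA rows did, against 4.55% of 22 exon, 11.9% of intron and 13.7% of UTR pieces. The directions rested on the scaling. With the totals of the intron set 652 intron pieces were higher and 1254 lower, and with the whole-RNA scaling 713 were higher and 1164 lower. With the whole-RNA scaling 34 exon pieces were higher and 129 lower, and 207 UTR pieces were higher and 245 lower.

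UTR pieces of transcripts that also have a whole-RNA row largely repeat those rows and went their way. Of 179 measured, 8 were higher and 40 lower, with a median of -0.40. Of the 1320 other UTR pieces 271 were higher and 144 lower, with a median of 0.21. The intron set was dominated by few rows, the 10 most abundant holding 51.3% of its counts, and 3 of its rows with at least 1000 counts followed a tRNA row to within 5% in all 5 EV libraries and held 14.1% of the set's counts.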

How the data were processed

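The authors deposited 1 table of expected counts (estimated read counts per row, not scaled between libraries), with 1 column for each of 7 libraries. The submitters' processing notes name Salmon, Novoalign, cutadapt and UMI-tools, and the mouse builds mm10 and GRCm38. Per the labels' protocols the adapter carried a 12 nt random tag for removing duplicates. Tool versions, the order of steps and whether duplicates were removed were not given in the sources used here.

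Groups were taken from the sample titles, 1 library each. Counts were rounded for intervals. Ratios were scaled by TMM (edgeR 4.0.16, R 4.3.3) within each row set, from the pair alone, with an exact conditional binomial interval. A count of 0 was set to 3 counts, which gives a bound. The calculation was tested on simulated counts. Python 3.11.15 with pandas 2.3.3 and scipy 1.17.1 was used; DESeq2 1.42.0 gave alternative size factors. PCR copies are not independent molecules, so intervals cover counting error only. No p-values were computed.

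Named rows were the 10 largest rises and falls past the rule among tRNA, spliced tRNA, SINE and 4.5S rows (falls numbered 2), the 5 most abundant of these, families past the rule, and at most 2 transcript IDs each way with at least 1000 counts. Other rows named were chosen after their values were seen. The groups, lists and rules were chosen with earlier results of these data known. The split of transcripts by EV and cell level, the places among libraries and the pieces far outside other libraries were added after the data were seen. Lists fixed by gene symbol, namely Dis3l2 and its substrates, mitochondrial, interferon-stimulated and EV genes and cell type markers, matched no row and have no result.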

Additional observations from a re-analysis of the deposited data

How the results depend on the processing

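No paired analysis was possible because each group had 1 library and the labels carry no replicate numbers, so no library could be left out either. Whole-RNA rows numbered 35 higher and 59 lower in Vector EVs. This became 67 and 26 with exon totals, 67 and 111 at a minimum of 20 counts, 24 and 21 at 500, 90 and 172 with no minimum, and 72 and 116 at 1.5-fold. Totals, DESeq2 size factors, TMM over 5 EV libraries, totals of all rows and leaving out repeated SINE rows stayed within 1.5 times. Without the most abundant row there were 29 higher and 69 lower.

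For pieces, with the number higher first, exon rows gave 34 and 129 with the whole-RNA scaling, 1675 and 1492 at 20 counts, 0 and 7 at 500, and 88 and 139 at 1.5-fold. Intron rows gave 652 and 1254 with their own totals, 713 and 1164 with the whole-RNA scaling, 7668 and 7735 at 20 counts, 185 and 35 at 500, and 2525 and 1450 at 1.5-fold. UTR rows gave 2804 and 2299 at 20 counts, 19 and 15 at 500, and 460 and 327 at 1.5-fold.

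Shares followed their denominator. In Vector EVs, tRNA, 4.5S RNA and transcripts held 46.2%, 3.81% and 10.1% of the counts of all rows, against 70.7%, 7.57% and 20.1% once the most abundant row was left out. In shDis3l2 EVs they held 41.1%, 3.93% and 13.0% of the counts of all rows, against 62.4%, 8.37% and 27.8% without that row. Leaving out ENSMUST00000174924, added after the data were seen, gave 76.8%, 6.34% and 15.6% in Vector EVs and 74.3%, 7.11% and 17.3% in shDis3l2 EVs. With totals the 90th percentile of the absolute log2 ratio was 1.43. Scalings shift all rows alike, and of the named rows and families past the rule, tRNA-Val-CAC-4-1 and Pro-AGG lost their calls. Rows below 100 counts were left out of the main rule. In whole-RNA rows of 20 to 99 counts the 90th percentile was 3.32. Their robust SD was 1.78, against a median counting SD of 0.55, so most of that spread lay beyond counting error.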

Other observations

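A few pieces of transcripts were far lower in Vector EVs than in the 4 other EV libraries. Among pieces with at least 1000 counts over the pair, 5 stood at least 8-fold below all 4 other EV libraries after scaling, 1 of 25 exon, 2 of 784 intron and 2 of 153 UTR pieces, and 0 stood as far above. For shDis3l2 EVs, and among the 235 whole-RNA rows of that depth in either library, 0 did so. The limit was chosen after the values were seen. An intron piece had 1325 counts in Vector EVs, against 34419 in shDis3l2 EVs and 18941 to 42319 in the others. A further intron piece had 498 counts in Vector EVs and 9250 in shDis3l2 EVs, with 5157 to 9637 in the others. The exon piece had 92 counts in Vector EVs and 2881 in shDis3l2 EVs, with 2020 to 4181 in the others. The UTR pieces had 107 and 161 counts in Vector EVs, against 2834 and 2889 in shDis3l2 EVs.

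The same 5 pieces were low in whole shDis3l2 cells beside whole shNS cells, while shDis3l2 EVs were not low in them. Whether a library was swapped or mislabelled was not tested. Over the whole-RNA rows the shDis3l2 cell library held 32342600 counts and the shNS cell library 37041326. The sets of pieces had other totals. Exon rows held 555789 counts in shDis3l2 cells and only 27301 in shNS cells. Intron rows held 6586772 in shDis3l2 cells and 5413364 in shNS cells, and UTR rows 27750586 and 30333888. The intron pieces had 766 and 334 counts in shDis3l2 cells, against 4922 and 7658 in shNS cells. The exon piece had 6 counts in shDis3l2 cells and 325 in shNS cells. The UTR pieces had 8 and 0 counts in shDis3l2 cells, against 2629 and 227 in shNS cells. Other pieces were at 0 in 1 library of the pair with at least 100 counts in the other. There were 61 such intron pieces at 0 in Vector EVs and 82 at 0 in shDis3l2 EVs, and 13 UTR pieces at 0 in Vector EVs and 18 at 0 in shDis3l2 EVs. Of these, 11 of the 61 and 14 of the 82 intron pieces were also at 0 in all 3 other EV libraries.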
